A study of Mus musculus with 8 samples.

Results

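The genes of one signalling system, described here in cultured mouse alveolar epithelium, are the secreted class 3 semaphorins Sema3a, Sema3b, Sema3c, Sema3e and Sema3f, the growth factor Vegfa, and the neuropilins Nrp1 and Nrp2. They were taken by name and not by a cut on their values, though earlier results of these data were known. They make up 8 of the 32285 genes of the RNA matrix. The peaks over them, with 2000 bp added on either side of each gene, make up 91 of the 116068 peaks of the matching chromatin matrix. Class 3 semaphorins are guidance cues that were first known from growing axons, and most of them act through a neuropilin that binds the ligand and a plexin that carries the signal into the cell. Neuropilins also bind forms of Vegfa and then act beside the VEGF receptor Kdr. In the mouse lung the epithelium is a source of Vegfa for the capillaries of the alveolar wall, and semaphorins and neuropilins take part in the branching of the airways and in the forming of alveoli.

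The cells were alveolarspheres, small hollow cultures grown without serum or feeder cells from type II alveolar epithelial (ATII) cells, which make surfactant and can turn into the flat type I (ATI) cells that line the air space. Cultures were seeded from ATII cells of both young and old mice and, on day 9, received an adeno-associated virus of serotype 9 carrying either Sox9 together with Cre (Sox9-Cre) or Cre alone (Cre), so that both groups received Cre. A medium that favours ATI differentiation followed for 4 days in every group, after which tdTomato-positive cells were collected by flow sorting, and each nucleus gave both an RNA and an open chromatin (ATAC) profile. The labels give 8 samples, 2 each of Sox9-Cre RNA, Sox9-Cre ATAC, Cre RNA and Cre ATAC. The labels do not say which sample came from which age, nor what drives the tdTomato reporter. The deposited matrices pool all nuclei, and their barcodes carry 4 prefixes that match no sample title. Sox9-Cre and Cre were therefore not compared. The prefixes are called libraries A to D, values are given library by library, and no test or SD was computed, since nuclei of 1 pooled sample are not replicates.

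The 7184 nuclei used had a median of 9802, 11599.5, 11090 and 11728 unique molecular identifiers (UMIs, counted RNA molecules) in libraries A, B, C and D. Clustering on other genes than the 8 and their pathway gave 13 clusters. Clusters 2 and 4 were named ATI-like (1228 nuclei), clusters 1 and 3 transitional-like (1575 nuclei, marked by keratins such as Krt8) and clusters 7 and 8 ATII-like (1583 nuclei), and each was present in all 4 libraries. Cluster 12 was named airway secretory-like (169 nuclei) and came from libraries C and D. Ciliated markers were raised in it too (11, against 12 airway secretory markers), so its name does not exclude ciliated nuclei. Clusters 0, 5, 6, 9, 10 and 11 stayed unnamed. The names rest on markers, not on purity: the surfactant gene Sftpc still stood at 421 UMIs per 10000 UMIs in ATI-like nuclei, against 939 in ATII-like nuclei, while the ATII marker Lamp3 stood at 0.386 in ATI-like nuclei, against 7.87 in ATII-like nuclei. Stress genes (Hspa1a, Hspa1b) were among the leading genes of cluster 1 and inflammatory genes (Lrg1, Lcn2) among those of cluster 8. Sema3a itself was among the 10 leading genes of cluster 2, although it took no part in the clustering. Sox9 stood at 0.758 UMIs per 10000 over all nuclei and at 5.80 in cluster 10, which held 2, 0, 350 and 194 nuclei of libraries A, B, C and D.

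Promoter sequences from RefSeq (GRCm38.p6, 250 bases before to 50 after a listed start) were found for 6 of the 8 genes. A peak lay over a promoter of Sema3c, Sema3e, Vegfa and Nrp2, so these 4 sequences are shown to place the promoter peaks whose accessibility is given further on. Capitals mark matches, on either strand, to any of the motifs searched, which were AP-1 (TGANTCA), TEAD (GGAATG), SOX (ACAANG), NKX2-1 (CAAGTG), HIF (ACGTG) and GC box (GGGCGG). The positions are chr5:17574566-17574865 on the plus strand for Sema3c, chr5:14025026-14025325 on the plus strand for Sema3e, chr17:46032328-46032627 on the minus strand for Vegfa and chr1:62703067-62703366 on the plus strand for Nrp2.
Sema3c: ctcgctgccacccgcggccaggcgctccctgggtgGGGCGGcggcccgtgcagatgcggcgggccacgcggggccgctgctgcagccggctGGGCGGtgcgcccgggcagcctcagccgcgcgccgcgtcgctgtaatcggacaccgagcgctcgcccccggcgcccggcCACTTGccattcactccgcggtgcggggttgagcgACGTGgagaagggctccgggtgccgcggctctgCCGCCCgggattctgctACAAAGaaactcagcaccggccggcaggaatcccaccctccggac
Sema3e: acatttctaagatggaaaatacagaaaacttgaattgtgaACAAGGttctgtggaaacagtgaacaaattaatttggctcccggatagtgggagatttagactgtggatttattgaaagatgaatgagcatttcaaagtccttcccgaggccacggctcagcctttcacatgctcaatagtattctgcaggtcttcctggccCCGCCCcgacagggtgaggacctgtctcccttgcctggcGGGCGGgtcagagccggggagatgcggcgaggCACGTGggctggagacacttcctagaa
Vegfa: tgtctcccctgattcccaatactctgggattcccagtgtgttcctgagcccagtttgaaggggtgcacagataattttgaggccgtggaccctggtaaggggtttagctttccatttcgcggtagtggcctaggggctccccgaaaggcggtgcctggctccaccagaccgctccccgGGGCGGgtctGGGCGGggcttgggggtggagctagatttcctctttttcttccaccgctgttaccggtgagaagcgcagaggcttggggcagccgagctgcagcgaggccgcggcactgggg
Nrp2: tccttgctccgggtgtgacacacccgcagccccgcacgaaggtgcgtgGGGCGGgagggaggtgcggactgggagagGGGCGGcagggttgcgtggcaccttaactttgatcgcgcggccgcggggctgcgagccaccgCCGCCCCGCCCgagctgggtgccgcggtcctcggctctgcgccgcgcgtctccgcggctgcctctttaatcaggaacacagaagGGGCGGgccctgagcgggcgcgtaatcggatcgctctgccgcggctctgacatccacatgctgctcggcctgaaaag
The promoters of Sema3c and Nrp2 were rich in GC (75.7% and 70.7%, against a median of 52.7% over 32851 promoters) and in CpG (observed over expected 0.979 and 0.992, against a median of 0.384). Those of Sema3e and Vegfa had 50.7% and 62.0% GC, with a CpG ratio of 0.579 and 0.563. GC boxes occurred 3 times in the Sema3c promoter, 2 times each in those of Sema3e and Vegfa and 5 times in that of Nrp2, where a pair of them overlapped by a base, and 35.7% of all promoters hold at least 1. HIF matches occurred once in Sema3c and at a single palindromic site, counted on both strands as 2, in Sema3e, and 19.6% of all promoters hold one. SOX matches occurred once each in Sema3c and Sema3e (41.2% of all promoters) and an NKX2-1 match once in Sema3c (13.6%). AP-1 (7.81% of all promoters) and TEAD (14.7%) letters were not in these windows. Listed promoters with no peak over them are not printed. Among these, a further Vegfa promoter (chr17:46025114-46025413) held 1 HIF, 1 SOX and 1 GC box match. The Sema3a promoter held 3 SOX matches, and the Nrp1 promoter held 1 GC box match. A match of letters is a description and not a bound site.

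The genes differed in the class of nuclei where their RNA was highest. Among the ATI-like, transitional-like and ATII-like classes, Sema3a and Sema3e RNA was highest in ATI-like nuclei, Sema3c RNA in transitional-like nuclei and Nrp1 RNA in ATII-like nuclei, and this held in each of the 4 libraries. Against ATII-like nuclei, 5 of the 8 genes were at least 2-fold higher in ATI-like nuclei (Sema3a, Sema3b, Sema3e, Vegfa and Nrp2), where 7.99% of 13761 genes tested were, and Nrp1 was the 1 gene at least 2-fold lower, where 6.18% of all were. In transitional-like nuclei 4 of the 8 were at least 2-fold higher than in ATII-like nuclei (Sema3b, Sema3c, Sema3e and Nrp2), where 14.4% of 14350 genes tested were, and Nrp1 was again the 1 lower gene, where 9.62% of all were. All 8 genes had the 30 UMIs required for a fold in both comparisons. These counts are descriptions, since earlier results of these data were known when the genes were chosen. RNA levels below are given as a gene's UMIs per 10000 UMIs of a class. They are compared within a gene only, because counts of nuclear RNA grow with gene length.

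**Figure D1:**
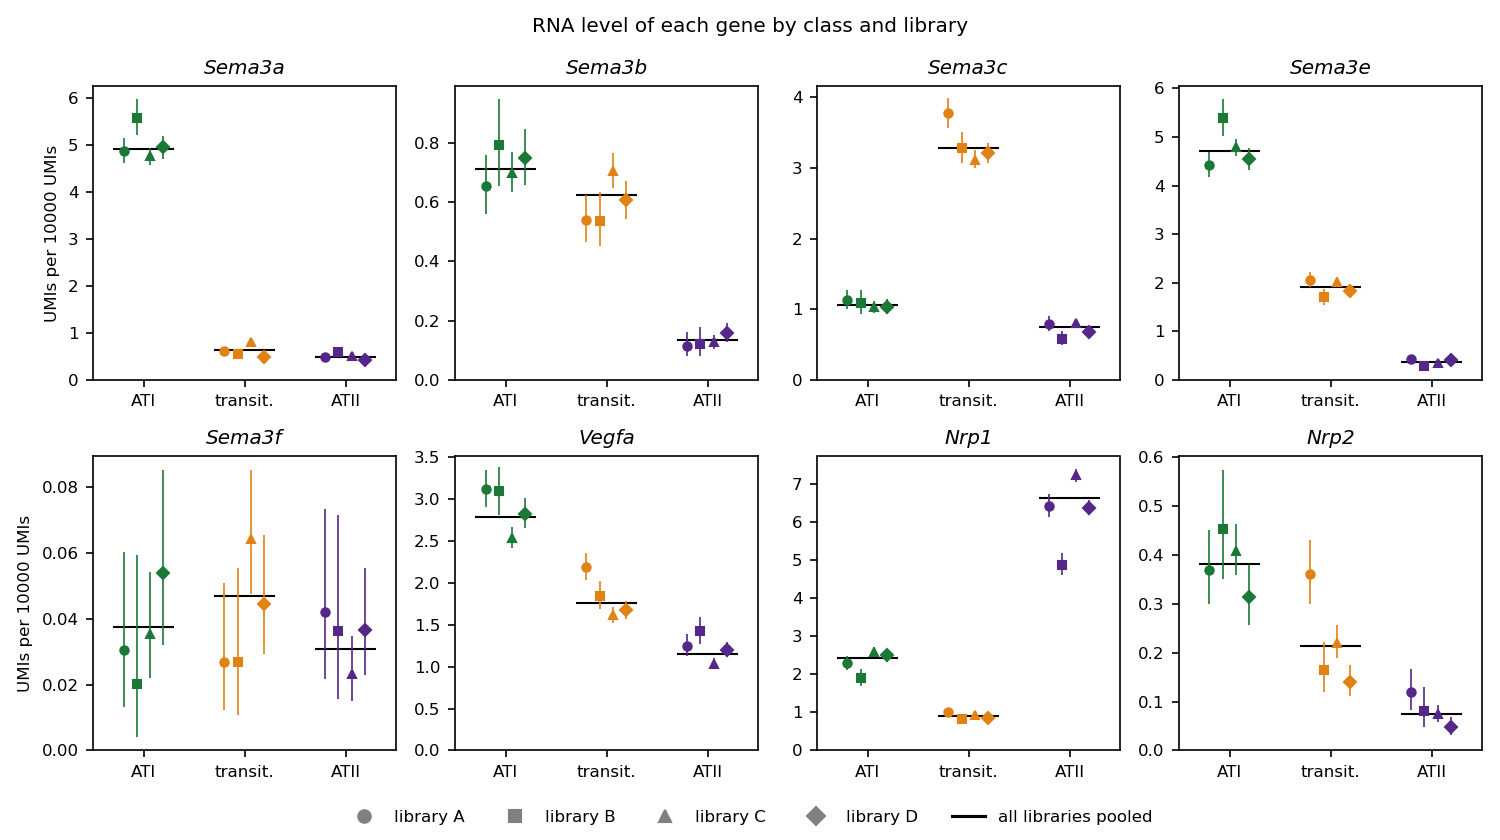
RNA level (UMIs per 10000 UMIs, y axis, a scale of its own for each gene) in ATI-like, transitional-like and ATII-like nuclei (x axis), with 1 point per library, exact Poisson 95% intervals for counting error and a line at the pooled level. Sema3a sits between 4.75 and 5.57 in ATI-like nuclei of the 4 libraries and below 1 in both other classes, Sema3c is highest in transitional-like nuclei, and Nrp1 is highest in ATII-like nuclei, between 4.88 and 7.22.

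Sema3a, a repulsive cue that binds Nrp1, stood at 4.87, 5.57, 4.75 and 4.94 in ATI-like nuclei of libraries A, B, C and D. It stood at 0.605, 0.548, 0.801 and 0.490 in transitional-like nuclei and at 0.479, 0.593, 0.498 and 0.429 in ATII-like nuclei. The ATI-like values lay above all others without overlap, whereas the transitional-like and ATII-like values overlapped. The pooled level was 10.1-fold that of ATII-like nuclei (95% interval 9.47 to 10.8, 9.39 to 11.5 in single libraries) and 7.68-fold that of transitional-like nuclei (5.93 to 10.2 in single libraries). Classes set by the marker counts of each nucleus gave 6.17-fold and 22.8-fold, and cluster 1 alone as the transitional-like class gave 18.1-fold for the second. Between the ATI-like clusters it was higher in cluster 2 (6.35) than in cluster 4 (3.43). The transitional-like level was 1.32-fold the ATII-like level, but this direction was not stable: it turned to 0.271 when nuclei were sorted into classes by their marker counts in place of clusters, to 0.559 for cluster 1 alone and to 0.920 when library B was left out and the rest clustered anew.

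Sema3e, which in the mouse binds Plxnd1 directly, without a neuropilin, shared the first place of ATI-like nuclei but not the low value in the transitional state. It stood at 4.43, 5.38, 4.78 and 4.54 in ATI-like nuclei of libraries A, B, C and D, at 2.06, 1.70, 2.01 and 1.82 in transitional-like nuclei and at 0.423, 0.290, 0.352 and 0.402 in ATII-like nuclei. The 3 classes formed steps with no overlap between libraries. The pooled ATI-like level was 12.8-fold the ATII-like level (95% interval 11.9 to 13.8, 10.5 to 18.6 in single libraries), and the transitional-like level was 5.20-fold (4.81 to 5.62, 4.53 to 5.86 in single libraries). The transitional-like fold was 3.18 when library B was left out and the rest clustered anew, and 2.58 with classes set by marker counts. Within the ATI-like class cluster 2 stood at 6.93 and cluster 4 at 2.44, and cluster 4 lay closer to the transitional-like clusters 1 (1.82) and 3 (1.96) than to cluster 2.

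Sema3c, which can bind both neuropilins and is needed in the mouse for the outflow tract of the heart, had another order. It stood at 1.13, 1.09, 1.03 and 1.03 in ATI-like nuclei of libraries A, B, C and D, at 3.77, 3.29, 3.12 and 3.21 in transitional-like nuclei and at 0.791, 0.584, 0.807 and 0.678 in ATII-like nuclei. Transitional-like values were the highest of these 3 classes in every library, and both transitional-like clusters were alike (3.36 in cluster 1, 3.25 in cluster 3). The transitional-like level was 4.40-fold the ATII-like level (95% interval 4.17 to 4.65, 3.87 to 5.62 in single libraries). The ATI-like level was 0.322 of the transitional-like level (0.304 to 0.341), and 1.42-fold the ATII-like level (1.32 to 1.52). Both of these values differed between alternatives: with nuclei of at least 1000 UMIs, clustered anew, they were 0.644 and 3.03, and the ATI-like level was at least 2-fold the ATII-like level in 6 of 16 alternatives, among them those without library A (2.13), C (2.72) or D (2.40).

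Sema3b, studied in human lung cancer as a tumour suppressor, stood at 0.653, 0.790, 0.698 and 0.749 in ATI-like nuclei of libraries A, B, C and D. It stood at 0.540, 0.536, 0.704 and 0.605 in transitional-like nuclei and at 0.115, 0.122, 0.126 and 0.158 in ATII-like nuclei. ATI-like and transitional-like values overlapped, and both lay above the ATII-like values in every library. The pooled levels were 5.34-fold (95% interval 4.67 to 6.12) and 4.67-fold (4.11 to 5.34) the ATII-like level. The ATI-like fold was 3.42 for cluster 4 alone, and the transitional-like fold was 2.23 with classes set by marker counts and 2.28 for cluster 1 alone.

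Sema3f, whose main receptor is Nrp2, was barely counted, with 385 UMIs in all nuclei. It stood at 0.0374 in ATI-like nuclei (50 UMIs), 0.0469 in transitional-like nuclei (91 UMIs) and 0.0309 in ATII-like nuclei (66 UMIs), and the values of single libraries overlapped between all of these classes. The transitional-like level was 1.52-fold the ATII-like level, with an interval for counting error of 1.09 to 2.12. Single libraries ran from 0.639 to 2.76, so this direction was not shared by all libraries. The ATI-like level was 1.21-fold the ATII-like level (0.822 to 1.78) and 0.799 of the transitional-like level (0.554 to 1.14). Neither of these ATI-like differences went beyond counting error. The airway secretory-like nuclei had the highest pooled level, with 0.143 in library C and 0.175 in library D, and overlapped with cluster 11, which stood at 0.148 in library C on 17 UMIs.

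Vegfa, the growth factor that keeps alveolar capillaries, stood at 3.12, 3.09, 2.54 and 2.83 in ATI-like nuclei of libraries A, B, C and D. It stood at 2.19, 1.85, 1.62 and 1.68 in transitional-like nuclei and at 1.253, 1.42, 1.04 and 1.199 in ATII-like nuclei. The 3 classes formed steps without overlap, all of them with Vegfa RNA well above 0. The ATI-like level was 2.42-fold the ATII-like level (95% interval 2.30 to 2.55, 2.18 to 2.49 in single libraries), and the transitional-like level was 1.53-fold (1.45 to 1.61). The 2-fold mark was passed by cluster 2 alone (3.24-fold) and not by cluster 4 alone (1.58-fold). Within the ATI-like class cluster 2 stood at 3.73, whereas cluster 4 stood at 1.82, near the pooled transitional-like level of 1.76.

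Nrp1, the receptor shared by Sema3a and Vegfa, ran the other way. It stood at 2.29, 1.91, 2.57 and 2.49 in ATI-like nuclei of libraries A, B, C and D, at 1.00, 0.835, 0.920 and 0.850 in transitional-like nuclei and at 6.42, 4.88, 7.22 and 6.37 in ATII-like nuclei. No library value of one class reached into another. The ATI-like level was 0.366 of the ATII-like level (95% interval 0.352 to 0.380, 0.357 to 0.391 in single libraries), and the transitional-like level was 0.136 of it (0.129 to 0.143, 0.128 to 0.171 in single libraries). The transitional-like state was thus the lowest of the 3, and ATI-like nuclei stood at 2.69-fold its level (2.28 to 2.93 in single libraries). The ATI-like level was 0.214 and 0.218 of the ATII-like level when library C or D was left out and the rest clustered anew. The fold over transitional-like nuclei was 1.42 without library C, and 4.51 against cluster 1 alone. Clusters 7 and 8 of the ATII-like class were close, at 6.68 and 6.47.

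Nrp2, the neuropilin preferred by Sema3f, was sparse and had the order of Sema3a, Sema3b, Sema3e and Vegfa, not that of Nrp1. It stood at 0.370, 0.453, 0.409 and 0.314 in ATI-like nuclei of libraries A, B, C and D, at 0.361, 0.165, 0.221 and 0.141 in transitional-like nuclei and at 0.119, 0.0815, 0.0748 and 0.0482 in ATII-like nuclei. ATII-like values were the lowest in every library, while ATI-like and transitional-like values overlapped through library A. The ATI-like level was 5.18-fold the ATII-like level (95% interval 4.32 to 6.23, 3.11 to 6.52 in single libraries), and 3.15-fold for cluster 4 alone. The transitional-like level was 2.89-fold (2.40 to 3.49), and fell under 2-fold when classes were set by marker counts (1.89) or when cluster 1 stood for the class (1.74).

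Across the remaining clusters the orders differed by gene. Sema3a came after ATI-like nuclei in cluster 6 (2.56, a cluster with a low median of 6345 UMIs), then in clusters 11, 0 and 5 (1.502, 1.38 and 1.35), of which 0 and 5 overlapped between libraries, and was lowest in cluster 10 (0.258) and among airway secretory-like nuclei (0.0774). Sema3c was as high in cluster 0 (3.28) and cluster 6 (3.08) as in transitional-like nuclei, with overlapping libraries. Nrp1 came second in cluster 6 (4.35), below every ATII-like library, and was lowest in cluster 0 (0.590) and airway secretory-like nuclei (0.505). Nrp2 was not counted in the 34 nuclei of cluster 9.

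**Figure D2:**
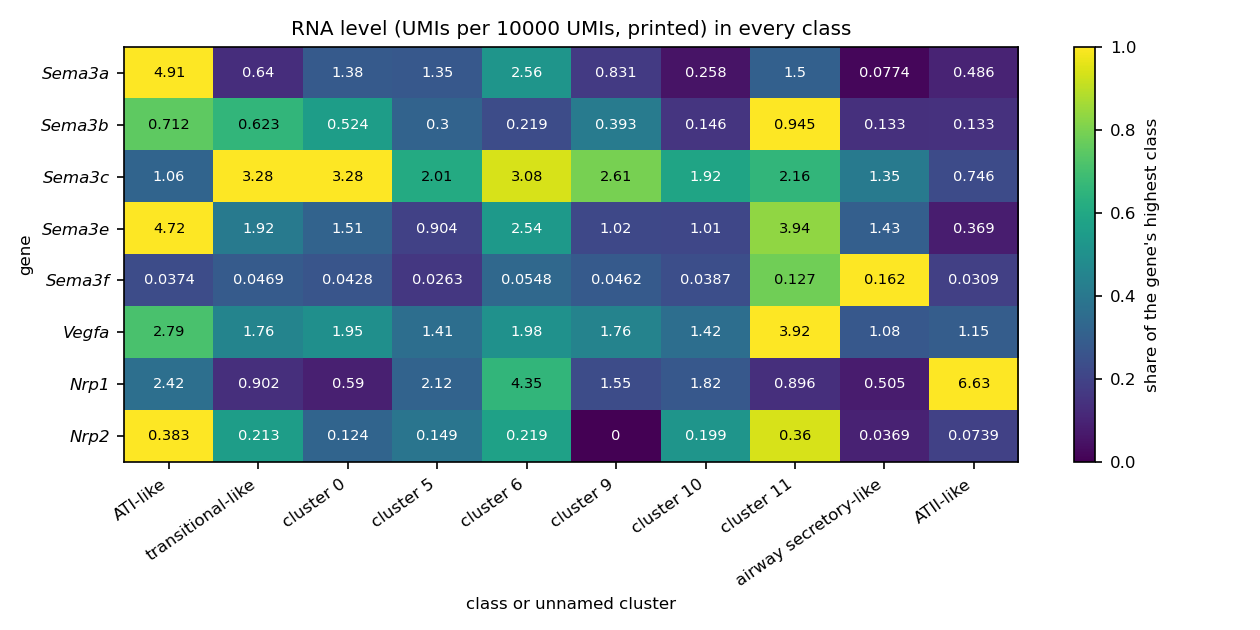
RNA level of the 8 genes (rows) in every class or unnamed cluster (columns), printed in UMIs per 10000 UMIs over all libraries and coloured as a share of the gene's highest class. Sema3a, Sema3e and Nrp2 peak in ATI-like nuclei, Vegfa and Sema3b in cluster 11, Sema3f in airway secretory-like nuclei and Nrp1 in ATII-like nuclei, and Sema3c shares its top level of 3.28 between transitional-like nuclei and cluster 0.

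Cluster 11, 117 nuclei of which 96 came from library C and 19 from library D, held the highest pooled Vegfa and Sema3b of the named classes and unnamed clusters. For Sema3b it stood at 0.945, level with the ATI-like cluster 2 taken alone (0.960). Vegfa stood at 4.23 in library C and 2.67 in library D, and Sema3b at 0.960 and 0.811, so that the Vegfa level of cluster 11 in library D fell among the ATI-like values and below cluster 2 of the same library (3.96). Against ATII-like nuclei of all libraries the pooled folds were 3.41 for Vegfa (95% interval 3.10 to 3.74), 7.09 for Sema3b (5.73 to 8.74), 10.7 for Sema3e (9.55 to 11.9) and 0.135 for Nrp1 (0.113 to 0.161). Of 14 tested of the 15 genes on a list of the response to low oxygen, 11 were at least 2-fold higher in cluster 11 than in ATII-like nuclei, where 10.9% of 12853 genes tested were, and 1 was as far lower, where 7.36% of all were. Their median log2 fold was 2.28, against 0.11 over all genes tested. Of them, Pgk1, a glycolytic enzyme, stood at 6.87 in cluster 11, against 0.696 in ATII-like nuclei, and Epas1 at 0.183, against 0.888. Cluster 10, the cluster with the high Sox9 level, had Sema3c at 2.57-fold (2.39 to 2.77), Sema3e at 2.73-fold (2.47 to 3.03) and Nrp2 at 2.70-fold (2.13 to 3.41) the ATII-like level, with Sema3a at 0.531 of it (0.451 to 0.623) and Nrp1 at 0.275 of it (0.260 to 0.291). In libraries C and D, which held 544 of its 546 nuclei, Sema3a stood at 0.273 and 0.228 in cluster 10, against 0.498 and 0.429 in ATII-like nuclei of the same libraries.

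After thinning, the share of nuclei with a UMI ranked the 3 named alveolar classes as the level did, apart from Sema3f. Because classes differed in depth (median 9838 UMIs in ATI-like, 10885 in transitional-like and 12590 in ATII-like nuclei), each nucleus was thinned to 5000 UMIs, which left 1061, 1405 and 1484 nuclei, and intervals are exact Clopper-Pearson. Sema3a was found in 72.4% of ATI-like nuclei (69.6% to 75.1%), 18.0% of transitional-like nuclei (16.0% to 20.1%) and 16.6% of ATII-like nuclei (14.7% to 18.6%). Before thinning these shares were 80.9%, 26.0% and 26.8%. The share of Sema3a was 1.82% in 165 thinned airway secretory-like nuclei, the class where it was lowest (median 14642 UMIs before thinning). Sema3c was found in 33.5%, 67.2% and 25.5% of ATI-like, transitional-like and ATII-like nuclei, with 49.3%, 81.0% and 47.1% before thinning. Sema3e was found in 70.0%, 43.4% and 12.5% of the same classes, with 81.3%, 60.2% and 25.5% before thinning. The receptor Nrp1 was found in 57.6% of ATI-like, 28.0% of transitional-like and 89.9% of ATII-like nuclei (88.2% to 91.4%), with 72.2%, 43.2% and 95.7% before thinning, and in 18.2% of airway secretory-like nuclei. Vegfa was more even, with 65.6%, 51.0% and 41.6% (81.1%, 70.5% and 68.2% before thinning). Nrp2 was found in 13.7%, 7.05% and 3.71%, Sema3b in 26.2%, 24.2% and 6.54% and Sema3f in 2.07%, 1.92% and 1.55% of these classes.

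RNA released from broken cells can add UMIs to any nucleus. Its size was read from Sftpc, which in airway secretory-like nuclei stood at 5.31% of its level over all nuclei of libraries C and D. Sema3a in airway secretory-like nuclei, at 5.71% of its own level over those nuclei, was close to that scale. In ATI-like, transitional-like and ATII-like nuclei each of the 8 genes lay above it. The lowest Sema3a level there, 0.486 in ATII-like nuclei, compares with 0.0720 on that scale, and the lowest Nrp1 level, 0.902 in transitional-like nuclei, with 0.155. The scale comes from libraries C and D, whereas these levels pool libraries A to D. The part of free RNA in them was not tested.

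The classes differed in the share of nuclei with semaphorin RNA, Nrp1 RNA or both. After thinning, at least 1 of the 5 semaphorins without Nrp1 was found in 40.1% of ATI-like nuclei (37.1% to 43.1%) and 63.1% of transitional-like nuclei (60.5% to 65.7%), against 4.92% of ATII-like nuclei (3.88% to 6.15%). Nrp1 without a semaphorin was found in 5.09% of ATI-like and 3.27% of transitional-like nuclei, against 45.5% of ATII-like nuclei (42.9% to 48.1%). Both together were found in 52.5%, 24.8% and 44.4% of the 3 classes. These shares depend on how common each RNA was in a class, and separation of the 2 within a class was not tested. At least 2 different semaphorins were found in 72.8% of ATI-like nuclei, 48.3% of transitional-like nuclei and 11.3% of ATII-like nuclei.

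**Figure D3:**
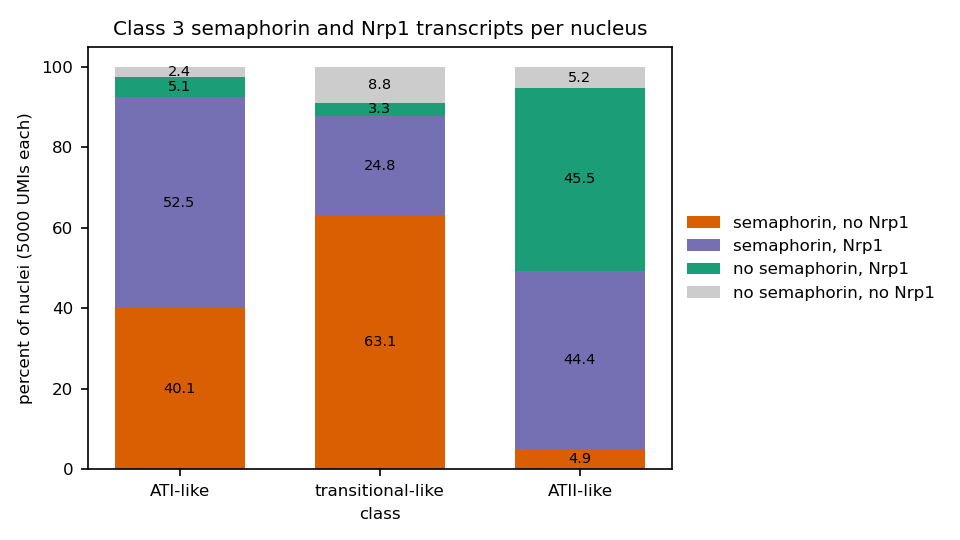
Percent of nuclei (y axis, each nucleus thinned to 5000 UMIs) in ATI-like, transitional-like and ATII-like nuclei (x axis) that held at least 1 of the 5 class 3 semaphorins, Nrp1, both or neither. The segment with a semaphorin and no Nrp1 covers 63.1% of transitional-like nuclei, against 4.92% of ATII-like nuclei.

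Within a class, Nrp1 shares of nuclei with and without a ligand lay closer together than those of the classes. In transitional-like nuclei Nrp1 was found in 38.7% of nuclei with Sema3a (32.7% to 45.0%) and in 25.7% of nuclei without it (23.2% to 28.3%), with the same direction in all 4 libraries. In ATI-like nuclei Nrp1 was found in 51.8% of nuclei with Sema3c (46.5% to 57.1%) and in 60.5% of nuclei without it (56.8% to 64.1%), again with the same direction in all 4 libraries. Nrp2 was found in 15.6% of ATI-like nuclei with Sema3a (13.1% to 18.4%) and in 8.53% of those without (5.60% to 12.3%), though library A went the other way (14.3% and 17.2%). Among ATII-like nuclei Nrp1 was found in 94.3% of those with Sema3a and in 89.0% of those without. Some other pairs were level: in ATI-like nuclei Nrp1 was found in 57.3% of those with Sema3e and in 58.2% of those without. Each class pools clusters that differ in these genes. Cluster 3 stood above cluster 1 in Sema3a (0.795 and 0.271) and Nrp1 (1.06 and 0.538). Cluster 2 stood above cluster 4 in Sema3a (6.35 and 3.43), Sema3c (1.22 and 0.887) and Nrp2 (0.528 and 0.233), and below it in Nrp1 (1.98 and 2.89). The part of these differences in the shares, which are sparse counts, was not tested.

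Open chromatin over the genes differed less than RNA. ATAC counts in all peaks over a gene and 2000 bp on either side were summed per 10000 counts in peaks, and a gene was counted from 25% higher or 20% lower on, which is the same ratio in either direction. In ATI-like nuclei 3 of the 8 genes were at least 25% above ATII-like nuclei, where 6.97% of 19428 genes tested were, and Nrp1 was the 1 gene at least 20% below, where 9.82% of all were. In transitional-like nuclei 2 of the 8 genes were at least 25% above ATII-like nuclei, where 13.6% of 19546 genes tested were, and Nrp1 was again the 1 gene below, where 11.9% of all were.

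Nrp1 had fewer counts in both classes than in ATII-like nuclei. Its 15 peaks held 1.16 counts per 10000 in ATI-like nuclei and 0.931 in transitional-like nuclei, against 1.64 in ATII-like nuclei, a fold of 0.709 (95% interval 0.665 to 0.754) and of 0.568 (0.534 to 0.604). In libraries A, B, C and D the fold was 0.636, 0.523, 0.736 and 0.737 for ATI-like over ATII-like nuclei and 0.469, 0.461, 0.598 and 0.592 for transitional-like over ATII-like nuclei. Sema3b, with 5 peaks, was 1.70-fold higher in ATI-like nuclei (1.55 to 1.87) and 1.67-fold higher in transitional-like nuclei (1.53 to 1.83). With 10000 bp of flank, which can take in neighbouring genes, it was only 1.21-fold and 1.13-fold higher, and the cause was not tested. Sema3a, with 19 peaks, was 1.30-fold higher in ATI-like nuclei (1.205 to 1.41; 1.34, 1.79, 1.21 and 1.38 in libraries A, B, C and D) and 1.24-fold without library A. Vegfa, with 4 peaks, was 1.26-fold higher in ATI-like nuclei (1.17 to 1.36) and 1.22-fold without library A or without library B. Nrp2, with 13 peaks, was 1.37-fold higher in transitional-like nuclei (1.28 to 1.47, 1.35 to 1.44 in single libraries) and 1.08-fold in ATI-like nuclei. For Sema3c, Sema3e and Sema3f the folds lay between 0.976 and 1.21 in both comparisons, although Sema3e RNA was 12.8-fold higher in ATI-like nuclei and Sema3c RNA 4.40-fold higher in transitional-like nuclei.

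Peaks over the promoters of Sema3c, Sema3e, Vegfa and Nrp2 were even, whereas some other peaks over the 8 genes were not. The peak over the Sema3c promoter printed above had 423 counts in ATI-like, 486 in transitional-like and 573 in ATII-like nuclei, a fold of 1.01 (95% interval 0.885 to 1.14) and of 0.887 (0.785 to 1.00) over ATII-like nuclei. The peak over the Sema3e promoter had folds of 1.07 (0.901 to 1.27) and 1.12 (0.954 to 1.31), that over the Vegfa promoter of 1.14 (1.01 to 1.30) and 1.06 (0.937 to 1.19), and that over the Nrp2 promoter of 1.00 (0.839 to 1.19) and 0.992 (0.842 to 1.17). Peaks over listed promoters were even in general: 0.484% of 12594 were at least 2-fold higher in ATI-like than in ATII-like nuclei, where 5.30% of 90018 other peaks were. Single peaks were counted from 2-fold on. Of 85 peaks over the 8 genes with enough counts, 11 were at least 2-fold higher in ATI-like than in ATII-like nuclei, where 4.71% of 102612 peaks were, and 6 were as far lower, where 4.59% of all were. Of 87 peaks tested between transitional-like and ATII-like nuclei, 17 were higher, where 15.0% of 106407 were, and 9 were lower, where 7.35% of all were, so the share of higher peaks was near that of all peaks in this comparison.

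The Nrp1 peaks at least 2-fold lower than in ATII-like nuclei, 4 in each comparison, all lay in the downstream part of the gene, from 88.4 to 147 kb. Over all peaks tested 4.59% were as far lower in ATI-like nuclei and 7.35% in transitional-like nuclei. In the peak 133 kb from its start (chr8:128491235-128492124) ATI-like nuclei had 240 counts and transitional-like nuclei 147, against 621 in ATII-like nuclei, a fold of 0.527 (95% interval 0.452 to 0.612) and of 0.248 (0.205 to 0.297). The peak at 129 kb had folds of 0.380 (0.286 to 0.501) and 0.288 (0.216 to 0.379), and the peak at 126 kb of 0.343 (0.228 to 0.503) and 0.302 (0.206 to 0.434). All of these peaks were below ATII-like nuclei in every library, in both classes. The peak at 88.4 kb (chr8:128447063-128447841) separated the classes, with a fold of 0.830 (0.736 to 0.935) in ATI-like and 0.346 (0.298 to 0.401) in transitional-like nuclei. The peak nearest to the Nrp1 start, 1.77 kb before it, had folds of 0.909 and 0.914. Another Nrp1 peak, 1 in all, was at least 2-fold higher in transitional-like than in ATII-like nuclei.

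In Nrp2 6 peaks, all from 44.9 to 93.1 kb into the gene, were at least 2-fold higher in transitional-like than in ATII-like nuclei. In ATI-like nuclei 3 Nrp2 peaks were at least 2-fold higher, so higher peaks were not confined to the transitional-like class. Over all peaks tested 15.0% were as far higher in transitional-like nuclei and 4.71% in ATI-like nuclei. The peak at 64.5 kb (chr1:62767405-62768329) had 54 counts in ATI-like and 279 in transitional-like nuclei, against 38 in ATII-like nuclei, a fold of 1.94 (95% interval 1.26 to 3.01) and of 7.68 (5.46 to 11.1, 5.05 to 13.8 in single libraries). This transitional-like fold stood beside a Nrp2 RNA level that was lower in transitional-like (0.213) than in ATI-like nuclei (0.383). A peak 1.59 kb after the Nrp2 start was lower in transitional-like nuclei (0.463, 0.378 to 0.564).

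Over Sema3a 3 peaks were at least 2-fold higher and 1 was as far lower in ATI-like than in ATII-like nuclei. Over all peaks tested 4.71% were as far higher and 4.59% as far lower in this comparison. In transitional-like nuclei 5 Sema3a peaks were higher and 3 lower by this measure, where 15.0% and 7.35% of all peaks were. Higher Sema3a peaks were thus found in both classes, but the share over all peaks was also larger in transitional-like nuclei. The highest ATI-like folds were at 212 kb and 43.1 kb before the start that the promoter table lists. The first (chr5:13184832-13185728) had 64 counts in ATI-like and 35 in transitional-like nuclei, against 27 in ATII-like nuclei, and the ATI-like fold was 3.23 (95% interval 2.03 to 5.27). The second (chr5:13353265-13354153) had 229, 149 and 110 counts, and its ATI-like fold was 2.84 (2.25 to 3.59, 1.41 to 4.92 in single libraries). Both lie within the Sema3a gene as RefSeq bounds it (chr5:13124822-13603485), which reaches further upstream than the promoter in the table. In Vegfa the peak 5.85 kb into the gene (chr17:46026082-46026979) had a fold of 1.96 (1.60 to 2.41, 1.64 to 2.20 in single libraries) in ATI-like nuclei and of 0.949 (0.754 to 1.19) in transitional-like nuclei. Over Sema3b the peak at chr9:107608797-107609743, which covers an end of the gene, had a fold of 2.58 (2.12 to 3.15) in ATI-like and of 2.76 (2.30 to 3.33) in transitional-like nuclei. No promoter was found for Sema3b, so this peak was not placed against its start and was not among the promoter peaks above.

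**Figure D4:**
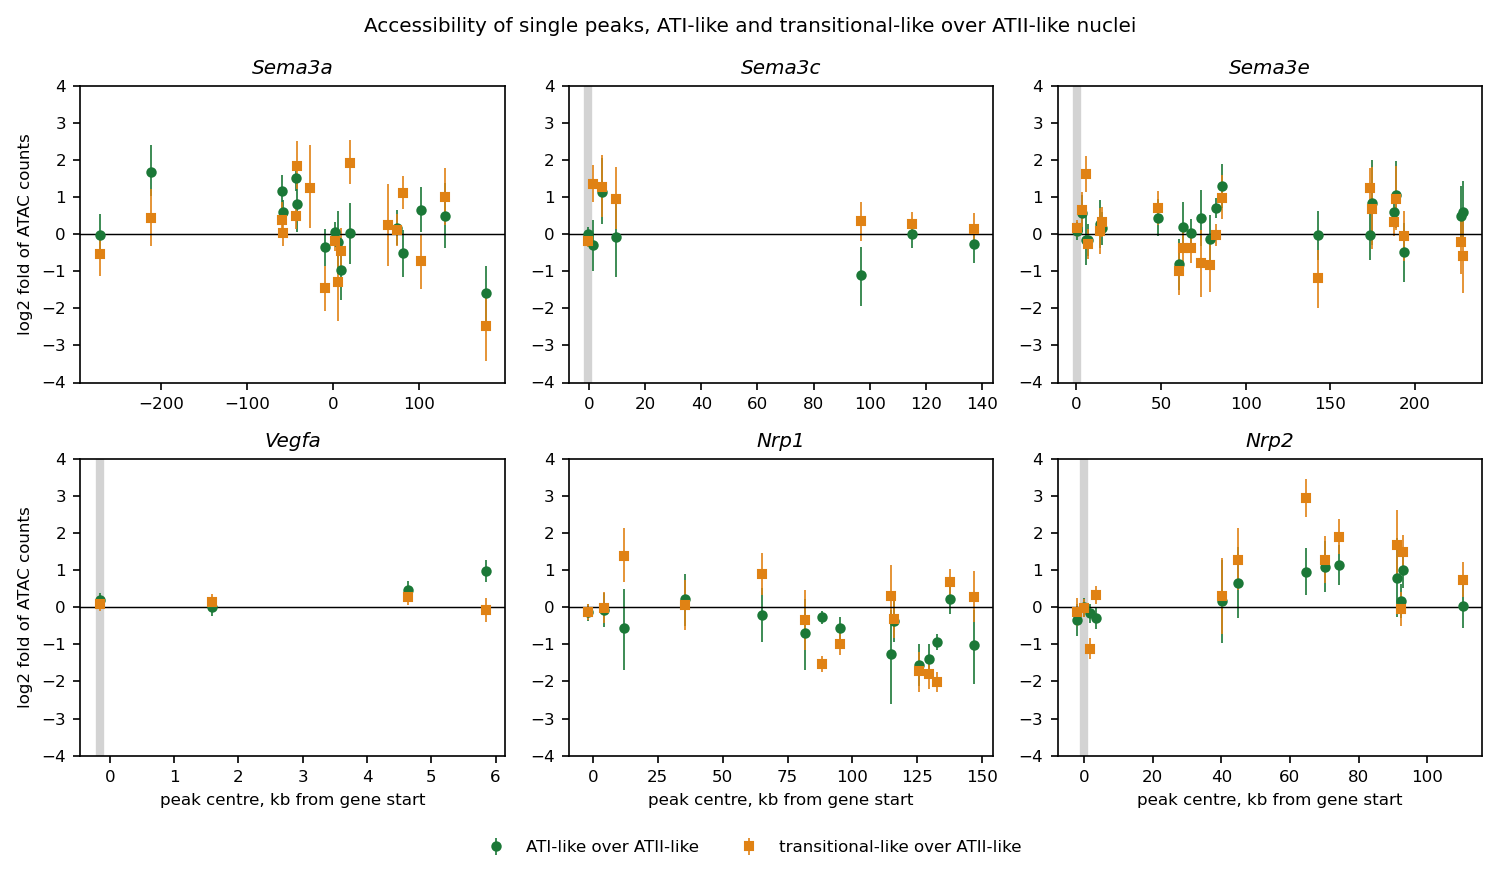
Log2 fold of ATAC counts (y axis) of each peak over the 6 genes with a promoter in the table, for ATI-like (circles) and transitional-like nuclei (squares) over ATII-like nuclei, by distance of the peak centre from the gene start in kb (x axis), with 95% intervals for counting error and a grey band where a peak lies over the promoter. The promoter peaks of Sema3c, Sema3e, Vegfa and Nrp2 lie near 0, the Nrp1 peaks at 126, 129 and 133 kb lie below 0 for both classes, and the highest Nrp2 peak, at 64.5 kb, is the transitional-like fold of 7.68.

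The rest of the pathway differed gene by gene. The counts of the lists below stand beside these shares over all genes tested. In ATI-like nuclei 7.99% were at least 2-fold higher than in ATII-like nuclei and 6.18% as far lower. In transitional-like nuclei the shares were 14.4% and 9.62%. Of the 8 plexins tested of 9 listed, 1 was at least 2-fold higher and 1 lower in ATI-like than in ATII-like nuclei, with a median log2 fold of -0.04, against 0.09 over all genes tested. Plxna1, a signalling partner of neuropilins, stood at 0.745 in ATI-like and 0.691 in transitional-like nuclei, against 0.273 in ATII-like nuclei (2.73-fold and 2.53-fold). Plxna4, the plexin through which Sema3a acts on mouse sensory axons, stood at 2.21 in ATI-like and 0.378 in transitional-like nuclei, against 5.17 in ATII-like nuclei (0.427 and 0.0730 of it), the same order of classes as for Nrp1. Plxna2 stood at 0.446 in transitional-like nuclei, against 1.38 in ATII-like nuclei (0.323 of it). In the transitional-like comparison 1 plexin was higher and 2 were lower, with a median log2 fold of -0.03, against 0.12 over all genes. Plxnd1, the receptor of Sema3e, was low throughout, at 0.0255 in ATI-like (34 UMIs) and 0.0628 in transitional-like nuclei (122 UMIs), against 0.0472 in ATII-like nuclei (101 UMIs).

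Of the VEGF ligands and receptors, 7 of 10 were tested in ATI-like nuclei, with 2 higher (Vegfa and Nrp2) and 2 lower (Nrp1 and Flt1, where Flt1 had 5 UMIs in ATI-like and 26 in ATII-like nuclei). Their median log2 fold was -0.08, against 0.09 over all genes. In transitional-like nuclei 8 were tested, with 3 higher (Nrp2, Vegfd and Flt4, where Flt4 had 25 UMIs in transitional-like and 5 in ATII-like nuclei) and 1 lower (Nrp1), and their median was 0.50, against 0.12. Vegfd, a ligand of lymphatic vessels, stood at 0.0659 in transitional-like nuclei, against 0.0295 in ATII-like nuclei (2.24-fold). The signalling receptor Kdr had 0 UMIs in 7184 nuclei, which allows a level of up to 0.000341 per 10000 (3 counts), and Flt1 had 81 UMIs in all.

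Among 13 semaphorins of other classes, 7 were tested in ATI-like nuclei, of which 1 was higher and 2 were lower, with a median log2 fold of -0.57, against 0.09 over all genes. Sema5a, a transmembrane semaphorin, stood at 0.631 in ATI-like nuclei, against 0.213 in ATII-like nuclei (2.96-fold). Sema4a stood at 0.0284 in ATI-like and 0.0299 in transitional-like nuclei, against 0.150 in ATII-like nuclei (0.189 and 0.199 of it). In the transitional-like comparison 1 of 8 tested was higher and 2 were lower, with a median log2 fold of 0.00. The list of all 7 class 3 semaphorins had 3 of 5 tested higher in ATI-like nuclei and 4 of 6 in transitional-like nuclei. Its medians were 2.42 and 2.18, beside 0.09 and 0.12 over all genes. The 5 tested in ATI-like nuclei were the member semaphorins, which were also 5 of the 6 in transitional-like nuclei. This list thus mostly repeats their result. The 2 that are not members, Sema3d and Sema3g, had 207 and 6 UMIs over all nuclei.

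Genes that carry or process the semaphorin signal were spread. Of 16 tested of 21 listed, 6 were higher and 2 lower in ATI-like than in ATII-like nuclei (median log2 fold 0.45, against 0.09 over all genes), and 5 were higher and 2 lower in transitional-like nuclei (0.37, against 0.12). Dpysl2, a cytoskeletal mediator of Sema3a in axons, stood at 4.05 in ATI-like nuclei, against 0.874 in ATII-like nuclei (4.64-fold, 3.91 to 5.08 in single libraries). L1cam, an adhesion molecule that associates with Nrp1, stood at 0.132 in ATI-like and 0.357 in transitional-like nuclei, against 0.0313 in ATII-like nuclei (4.20-fold and 11.4-fold). The GTPase genes Rnd1 (5.31-fold in ATI-like, 9.69-fold in transitional-like nuclei) and Rras (4.06-fold in transitional-like nuclei), whose products bind plexins, were higher too. Adamts1, a secreted protease that can release Sema3c, stood at 0.0120 in ATI-like and 0.198 in transitional-like nuclei, against 0.840 in ATII-like nuclei (0.0143 and 0.236 of it), and the proprotein convertase Pcsk6 at 0.0367 and 0.0958, against 0.287.

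Vegfa is a textbook target of the response to low oxygen, and the list of that response was read beside it. Of 12 of its 15 genes tested in ATI-like nuclei 1 was higher and 1 lower (median log2 fold -0.24, against 0.09), and of 14 tested in transitional-like nuclei 5 were higher and 1 lower (0.31, against 0.12). Pgk1 stood at 2.36 in transitional-like nuclei, against 0.696 in ATII-like nuclei (3.39-fold), Ankrd37 at 5.67-fold and Ndrg1, also one of the transitional markers, at 13.1-fold. Epas1, a hypoxia-inducible factor, was lower at 0.0996 in ATI-like and 0.112 in transitional-like nuclei, against 0.888 in ATII-like nuclei. Vegfa itself was higher in ATI-like than in transitional-like nuclei (1.58-fold, 1.43 to 1.69 in single libraries), whereas Pgk1 was lower, at 0.930 in ATI-like nuclei. That Vegfa fold was 1.03 for cluster 4 alone as the ATI-like class and 2.44 with classes set by marker counts.

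Over the 12 clusters with at least 50 nuclei, the log level of Nrp1 was closest to that of Veph1 (Pearson r 0.968) among 10432 genes, and close to that of Bmp1 (0.965). Sema3a was most like 9030404E10Rik (0.979), Pias1 (0.963) and Fnbp1l (0.961), and Sema3c most like Dusp10 (0.974), Fam129a (0.947) and Rel (0.945). For Sema3e these were Agrn (0.955), Timp3 (0.921) and Amn1 (0.919), for Vegfa Zfp984 (0.945), Tcta (0.944) and Mtmr6 (0.936), for Nrp2 Osbpl5 (0.963), Mtdh (0.959) and Arhgef26 (0.941), and for Sema3b 2210011C24Rik (0.960), Gprc5a (0.958) and Dusp7 (0.956). For Sema3f, the gene with the fewest UMIs, they were Cdkl2 (0.931), Plekha2 (0.922) and Chrm3 (0.922). Timp3 and Gprc5a were among the ATI markers used to name clusters. Among the 8 genes Vegfa was close to Sema3b (0.873), Nrp2 (0.866) and Sema3e (0.832), while Nrp1 ran against Sema3c (-0.63). The clusters share libraries and depth, and these values are descriptions.

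Markers of cells that are known sources of Vegfa receptors or semaphorins in the lung were low in the ATI-like, transitional-like and ATII-like classes. The 14 endothelial markers summed to 0.0981 UMIs per 10000 in ATI-like nuclei (0.0878 to 0.108 in single libraries) and 0.177 in transitional-like nuclei (0.151 to 0.199), against 0.128 in ATII-like nuclei (0.113 to 0.155), with Kdr at 0. The 13 mesenchymal markers summed to 0.0217 (0.0169 to 0.0405) and 0.0968 (0.0537 to 0.154), against 0.0267 (0.0166 to 0.0498), with Lum and Tcf21 at 0. The 13 immune markers summed to 0.0891 (0.0458 to 0.114) and 0.245 (0.130 to 0.332), against 0.245 (0.0544 to 0.377) in ATII-like nuclei, with none at 0. Over all nuclei the immune markers summed to 0.608 (0.0996 to 1.12 in single libraries), and 3742 of their 5359 UMIs lay in airway secretory-like nuclei (13.8 per 10000). In unnamed clusters the immune sum was 1.11 in cluster 11 and between 0.0789 and 0.135 in the others. The part of such RNA in the levels above was not tested.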

How the data were processed

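The authors deposited 2 pooled matrices of raw counts: UMI counts for 32285 genes and ATAC counts for 116068 peaks (median width 907 bp), in the same 7224 nuclei. Per the submitters' processing notes the tools were Signac 1.10.0, Seurat 4.3.0 and Cell Ranger 6.0.1, with no role for each. For the peak caller, nothing is stated: not given in the sources used here. The 8 genes and all lists were chosen with earlier results of these data known. Files that name multiplexing oligos of other samples were not used.

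Kept nuclei had 500 or more UMIs, 300 or more genes and less than 20% mitochondrial counts, which removed 25. Scrublet marked 15 nuclei (0.208%) as doublets, and these were left out. With so few marked, the call is taken to have failed, and doublets can remain. Libraries shared 20 barcode sequences. Counts were scaled to 10000 and reduced to 2000 variable genes, without the members, the pathway lists and Sox9. Nuclei were then clustered by Leiden at resolution 0.8, with 30 principal components and 15 neighbours. Names came from 12 marker lists. A marker supported a cluster if 5% of nuclei or more held a UMI of it and its level was 1.5-fold that of other nuclei or more. The best supported list gave the name where 3 of its markers and 30% of the list did so, and 3 of them stood in the top 50 genes of the cluster. This rule was set after clusters were seen.

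Levels are sums over nuclei with exact Poisson 95% intervals, folds have conditional exact intervals, and both cover counting error only. A fold needed 30 counts in the nuclei compared, and a count below 3 was set to 3. Genes of the pathway lists were named from 2-fold on with at least 100 UMIs, up to 4 per list by level; Flt1, Flt4, Plxnd1, Kdr, the 2 other class 3 semaphorins and the count of hypoxia genes in cluster 11, with Pgk1 and Epas1 named there, were chosen after their values were seen. Gene positions came from RefSeq (GRCm38.p6) for 81.4% of genes, and 12.2% of nuclei had under 1000 ATAC counts (median 4405, 3776, 9609 and 13991.5 in libraries A to D). Peak positions are printed as the authors list them. The fold calculation was tested on simulated data. Python 3.11.15, scanpy 1.11.5, scipy 1.17.1 and leidenalg 0.10.2 were used. One gene of the comparison of patterns over clusters is not reported here.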

Additional observations from a re-analysis of the deposited data

How the results depend on the processing

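Of 392 RNA folds recomputed under alternatives, 384 kept their direction, among them all 244 of the folds that were at least 2-fold at first, and 228 of those were still at least 2-fold. Of 216 ATAC folds 200 kept their direction, among them all 72 that were at least 25% higher or 20% lower at first, of which 57 were still past it. The number of genes at least 2-fold lower in RNA in transitional-like than in ATII-like nuclei was 2 when classes were set by marker counts, against 1, since Sema3a joined Nrp1. The number at least 25% higher in ATAC in ATI-like nuclei was 1 with 10000 bp of flank, 1 without library A and 1 with marker counts, against 3, and in transitional-like nuclei it was 1 with 10000 bp of flank, against 2. The wider flank can take in peaks of neighbouring genes. The cause of these shifts was not tested. Over all alternatives the ATI-like fold ranged from 6.17 to 13.1 for Sema3a, 6.62 to 18.8 for Sema3e and 0.214 to 0.435 for Nrp1, and the transitional-like fold from 3.17 to 4.93 for Sema3c and 0.0811 to 0.159 for Nrp1. Taking clusters 1, 2, 3, 4 or 7 alone for their class was chosen after seeing the data. No paired analysis was possible because no label ties a barcode prefix to a sample, so class folds within each prefix are given as values with no test; for the same reason Sox9-Cre was not compared with Cre by edgeR. Depth limits Sema3f and Nrp2 most.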
